A study of Apis mellifera with 12 samples.

Results

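Honey bee fat body pools were chosen by their reading of miR-750 and compared, a microRNA that was far brighter in some pools than in others. A pool was called high when the value of ame-miR-750 in the authors' deposited table exceeded 1000 and low otherwise, which put 5 of the 12 pools in the high class and 7 in the low class. The classes come from a measured value and not from a label, so the p-values below describe how other miRNAs went with the miR-750 reading, and they test no treatment. miR-750 itself made the classes and miR-1175 was left out of the tests by the same rule, so both are described without a test.

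The 12 pools were 6 from workers injected with dsRNA-Vg, double-stranded RNA against the yolk protein precursor vitellogenin, and 6 from workers injected with dsRNA-GFP, the sham control against a jellyfish protein that bees do not have. Injection took place in newly emerged bees (2 µL at 10 µg/µL), and the abdominal carcass lined with fat body was taken from workers aged 15 days that the labels call foragers. Each pool joined 400 ng of small RNA from each of 5 bees, and the pools are described as biological samples of different bees. The high class held 1 dsRNA-Vg pool (pool 3) and 4 dsRNA-GFP pools (pools 1, 2, 3 and 5), and the low class held 5 dsRNA-Vg pools (pools 1, 2, 4, 5 and 6) and 2 dsRNA-GFP pools (pools 4 and 6). The classes are therefore unevenly spread over the treatments, and treatment was a term in the comparisons reported here. A carcass can hold body wall, muscle, nerve and remnants of gut beside fat body, and in such bulk RNA fewer cells of a type and less RNA per cell cannot be told apart.

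microRNAs are short RNAs that guide Argonaute proteins to messenger RNAs, mainly through the seed, bases 2 to 8 from the 5′ end, and usually lower the output of those messengers. Insect fat body stores lipid and glycogen and makes vitellogenin, doing work that liver and adipose tissue share in vertebrates. miR-1175 is known from mosquitoes as a miRNA of the midgut, and miR-281 is also abundant in the insect midgut. In the gene order of the RefSeq assembly Amel_HAv3.1, miR-1175 and miR-750 are neighbours with 0 other genes between them. The mature sequences printed here are those of the reporters on the array, with the seed in capitals. The first pair shows that the neighbours that differ most between the classes have different seeds. The next 4 belong to the miRNAs on which the comparison turned, and miR-281 is the gut marker that was free to be tested.

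miR-750: cCAGAUCUaacucuuccagcuc
miR-1175: uGAGAUUCacuccuccaacuuac
miR-79: uAAAGCUAgauuaccaaagca
miR-279: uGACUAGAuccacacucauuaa
miR-305: aUUGUACUucaucaggugcucug
bantam: uGAGAUCAuugugaaagcugauu
miR-281: uGUCAUGGaguugcucucuuugu

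No other reporter on the array carried the seed of miR-750, miR-1175, miR-305, bantam or miR-281. The seed of miR-79 was shared with miR-9c, and that of miR-279 with miR-279b, miR-279c and miR-996.

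miR-750 read 1851, 2000, 5040 and 3602 in the high pools 1, 2, 3 and 5 of dsRNA-GFP, and 3973 in pool 3 of dsRNA-Vg, in the units of the deposited table, while the 7 low pools read 61 to 118 with a median of 79. The classes lie far apart on both sides of the limit: the nearest high pool was dsRNA-GFP pool 1 at 1851 and the nearest low pool was dsRNA-GFP pool 4 at 118. On the normalized log2 scale miR-750 averaged 11.32 ± 0.59 in the high pools (SD, n = 5) and 7.47 ± 0.16 in the low pools (SD, n = 7), and it was detected on every one of the 12 arrays. Detection here means that 50% or more of the 18 spots of a probe read above a limit set by the empty spots, their 95th percentile on the same array. miR-1175 read 318, 902, 1000 and 1507 in the same 4 dsRNA-GFP pools, and 1369 in pool 3 of dsRNA-Vg, against 47 to 77 with a median of 55 in the low pools. It averaged 9.78 ± 0.58 log2 in the high pools (SD, n = 5) and 7.26 ± 0.12 log2 in the low pools (SD, n = 7). Its classes did not overlap either, although it was detected on 5 of 5 high and only 5 of 7 low arrays. The order of the high pools differed between both miRNAs. In the deposited values dsRNA-GFP pool 3 was the brightest for miR-750 and dsRNA-GFP pool 5 for miR-1175. On the normalized scale dsRNA-GFP pool 3 stayed the brightest for miR-750, at 12.21 log2. For miR-1175 it was dsRNA-Vg pool 3 at 10.25, with dsRNA-GFP pool 5 at 9.96. Among the 168 probes of an array, miR-750 ranked 8 to 14 in brightness in the high pools and 35 to 48 in the low pools.

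**Figure D1:**
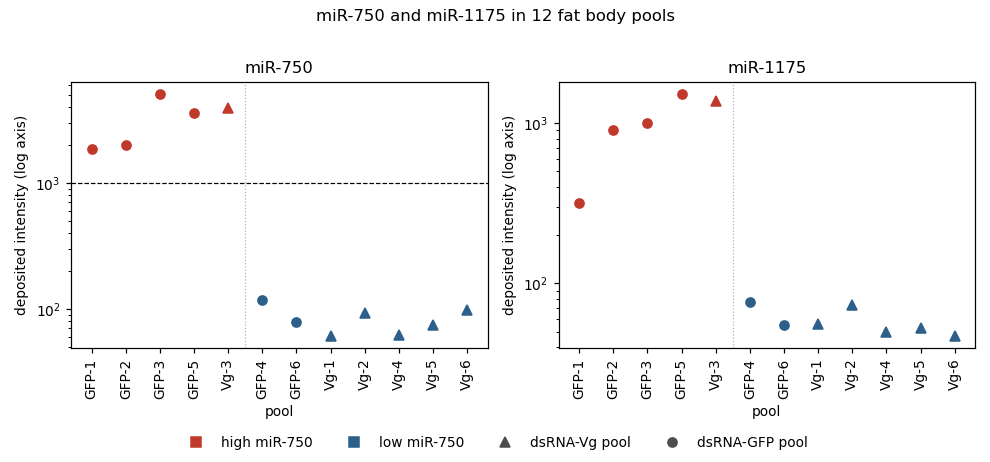
Deposited intensity (log axis) of miR-750 and miR-1175 in each pool, high pools in red at the left and low pools in blue, with circles for dsRNA-GFP, triangles for dsRNA-Vg and a dashed line at the limit of 1000 for miR-750. High pools read 1851 to 5040 for miR-750, against 61 to 118 in low pools.

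Brightness and controls of the arrays were examined by class, since they bear on every miRNA below. Detected probes numbered 135.2 ± 50.2 in the high pools (SD, n = 5) and 84.4 ± 42.3 in the low pools (SD, n = 7), with an adjusted difference of 55.5 and p = 0.111 (two-sided exact permutation of class within treatment, 90 arrangements, 0.333 after Benjamini-Hochberg adjustment over 3 measures). The median of the empty spots and the median miRNA signal differed by 0.01 and 0.21 log2 (exact permutation p = 0.967 and 0.456). Of the 55 control reporters, 5 whose targets the files do not describe were lower in the high pools at an adjusted p under 0.05 in limma, without normalization between arrays. They were PUC2PM-20B (-1.29 log2, SE 0.32), its versions a3-PUC2PM-20B (-1.11) and a2-PUC2PM-20B (-1.08), Ctr06-3P (-1.54, SE 0.42) and Ctr10-3P (-1.56, SE 0.44), each with an adjusted p of 0.0366. The 3 PUC2PM-20B reporters share a name and so count as near repeats of one signal. All 55 were of the array's types for spike calibration and biosequence controls. At an unadjusted p under 0.05 there were 10. Beyond those named, Ctr01-3P (-1.35), Ctr07-3P (-0.96), Ctr09-3P (-0.78) and Ctr03-3P (-0.73) were lower and ame-5S-3 (1.60) was higher.

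Ctr10-3P read 7.71, 9.72, 7.32 and 7.72 log2 in the 4 high dsRNA-GFP pools (1, 2, 3 and 5) and 7.75 in pool 3 of dsRNA-Vg, against 8.66 to 10.13 with a median of 9.41 in the low pools. Ctr06-3P read 9.97, 11.58, 9.33, 10.81 and 9.39 log2 in the same high pools in that order, against 11.02 to 12.03 with a median of 11.50 in the low pools. For both, 4 of 5 high pools lay below every low pool, and dsRNA-GFP pool 2 was the exception. None of the 6 bee reporters named for 5S ribosomal RNA passed: their differences were 0.60, 0.70, 1.60, 0.60, 0.51 and 0.06 log2 for ame-5S-1 to ame-5S-6, and the lowest adjusted p was 0.107 in limma, for ame-5S-3.

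**Figure D2:**
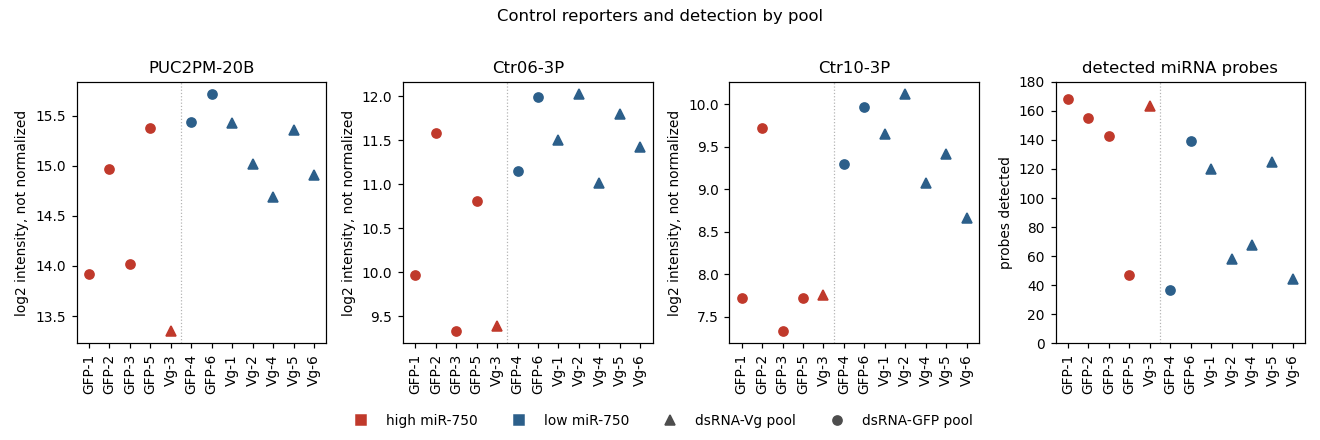
Background-corrected log2 intensity of control reporters PUC2PM-20B, Ctr06-3P and Ctr10-3P, not normalized between arrays, and the number of detected probes of 168, for each pool, high pools in red and low pools in blue. Ctr06-3P and Ctr10-3P lie lower in 4 of 5 high pools than in any low pool, and dsRNA-GFP pool 2 lies among the low pools.

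None of the other 166 miRNAs differed between high and low pools at an adjusted p under 0.05 (0 of 166, 0%, limma with treatment as a term and Benjamini-Hochberg adjustment). The lowest adjusted p was 0.25. At an unadjusted p under 0.05 there were 22 (13.3%), of which 7 were higher (4.22%) and 15 lower (9.04%) in the high pools. The median difference over all 166 was 0.02 log2. No miRNA separated the classes completely in normalized values. In the deposited values 1 did so upward (0.602%), miR-190 with 35 to 69 in the high pools and 18 to 33 in the low pools, and 1 downward (0.602%), miR-3718a with 81 to 105 in the high pools and 112 to 178 in the low pools. Both were named after their values were seen, and neither passed in the deposited values (adjusted p = 0.276 and 0.338), where 0 of 166 passed and 21 had an unadjusted p under 0.05 (12.7%), 10 higher (6.02%) and 11 lower (6.63%).

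The miRNAs with the largest negative differences were miR-79, miR-305, miR-12, bantam and miR-279, among the 20 with the lowest p. miR-79, which belongs to the miR-9 genomic cluster, read 7.49, 8.74, 7.21 and 7.72 log2 in the 4 high dsRNA-GFP pools (1, 2, 3 and 5) and 7.09 in pool 3 of dsRNA-Vg, against 7.85 to 9.11 with a median of 8.37 in the low pools. Its difference was -1.004 log2 (SE 0.30, 95% interval -1.66 to -0.35, adjusted p = 0.25 in limma). In 4 high pools the value lay below every low pool, and the value of dsRNA-GFP pool 2 lay within the low range. With dsRNA-GFP pool 2 set aside, 4 of 166 miRNAs (2.41%) lay wholly below the low pools in normalized values. In miR-133, miR-3718a and miR-3732 4 high pools also lay below every low pool, and there dsRNA-Vg pool 3 was the exception.

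miR-279, a regulator of JAK/STAT signalling and neuron formation in Drosophila, read 9.02, 10.27, 9.55 and 9.22 log2 in the high dsRNA-GFP pools and 9.37 in pool 3 of dsRNA-Vg, against 9.72 to 10.31 with a median of 10.16 in the low pools. Its difference was -0.71 log2 (SE 0.22, adjusted p = 0.25 in limma). miR-305, which acts on insulin and Notch signalling in the Drosophila gut, read 8.27, 10.22, 8.87, 8.74 and 8.52 log2 in the same high pools in that order, against 9.20 to 10.06 with a median of 9.58 in the low pools. In the normalized values both showed the layout of miR-79, except that dsRNA-GFP pool 2 had the highest miR-305 of all 12 pools. In the deposited values miR-305 read 1272 in that pool. Low pools dsRNA-GFP 6 (1590), dsRNA-Vg 2 (1521) and dsRNA-Vg 5 (1345) read higher there.

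The difference of miR-305 was -0.85 log2 (SE 0.33, adjusted p = 0.299 in limma). bantam, which promotes growth and blocks cell death in Drosophila, read 11.78, 12.70, 11.05, 11.72 and 11.22 log2 in these high pools, against 12.04 to 12.54 with a median of 12.30 in the low pools. Its difference was -0.76 log2 (SE 0.26, adjusted p = 0.25 in limma). In the normalized values dsRNA-GFP pool 2 again stood highest of all pools and the other 4 high pools lowest. In the deposited values bantam read 5147 and 5119 in high dsRNA-GFP pools 1 and 5, above low dsRNA-Vg pool 4 at 4953.

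**Figure D3:**
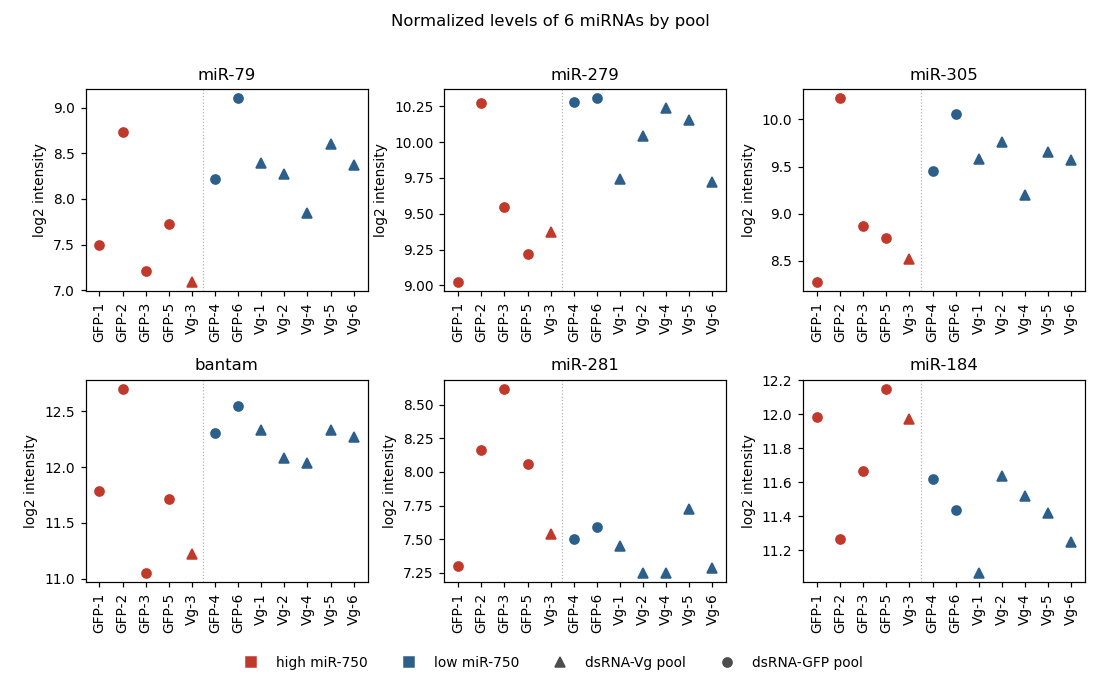
Normalized log2 intensity of 6 miRNAs in each pool, high pools in red at the left and low pools in blue at the right. For miR-79, miR-279, miR-305 and bantam 4 high pools lie under every low pool and dsRNA-GFP pool 2 does not, while miR-281 and miR-184 run higher in some high pools.

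The other negative differences among the lowest p were smaller. miR-307 differed by -0.34 (SE 0.10), miR-71 by -0.55 (SE 0.18), miR-375 by -0.40 (SE 0.13) and miR-3477 by -0.35 (SE 0.12), all with an adjusted p of 0.25 in limma. These sizes depended on the scaling: miR-307 was -1.37 with arrays scaled to their median and -1.16 with no normalization, and cyclic loess gave miR-71 -0.18, miR-375 -0.04 and miR-3477 -0.04. miR-12 differed by -0.77 (SE 0.34, adjusted p = 0.358 in limma), with dsRNA-Vg pool 3 at 9.55 against 10.36 to 11.48 in the low pools. Without that pool miR-12 was -0.23. dsRNA-Vg pool 3 is the only high dsRNA-Vg pool, so values without it, here and below, are the differences within dsRNA-GFP alone. miR-193, miR-100, miR-133 and miR-3747b differed by -0.31, -0.35, -0.37 and -0.18. Without dsRNA-Vg pool 3, miR-193 was -0.19 and miR-3747b -0.09. Most positive differences were of dim probes. miR-1006 differed by 0.16, miR-3783 by 0.12, and miR-3763, miR-3777 and miR-3725 by 0.09 to 0.12, and miR-1006 was detected on 3 of 5 high and 1 of 7 low arrays. Without dsRNA-Vg pool 3, miR-3777 was 0.03 and miR-3725 0.05.

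The brightest pair, miR-276 and miR-8, differed by 0.32 and -0.32 log2 (adjusted p = 0.358 each in limma). Quantile normalization gives the brightest ranks on every array fixed values, so a change of order between both probes produces equal and opposite differences. With arrays scaled to their median in place of that, miR-276 had -0.07. The same ranks held miR-2 at 13.78 log2 on 11 of 12 arrays, so its difference of -0.01 is fixed by the normalization, and with no normalization it was -0.80 (SE 0.30, adjusted p = 0.197 in limma). miR-317 differed by 0.03, and its sign turned under other scalings. miR-307 met such fixed values as well, at 13.26 log2 in low pools dsRNA-GFP 4 and 6 and dsRNA-Vg 6. miR-277 had that value in dsRNA-Vg pool 3, and miR-317 had it in dsRNA-GFP pool 3. The spread of miR-307 is thus in part set by the normalization. In the deposited values miR-307 read 8395 to 11316 in the high and 8742 to 14432 in the low pools. Its difference there was -0.32 log2 (SE 0.20, adjusted p = 0.476 in limma).

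**Figure D4:**
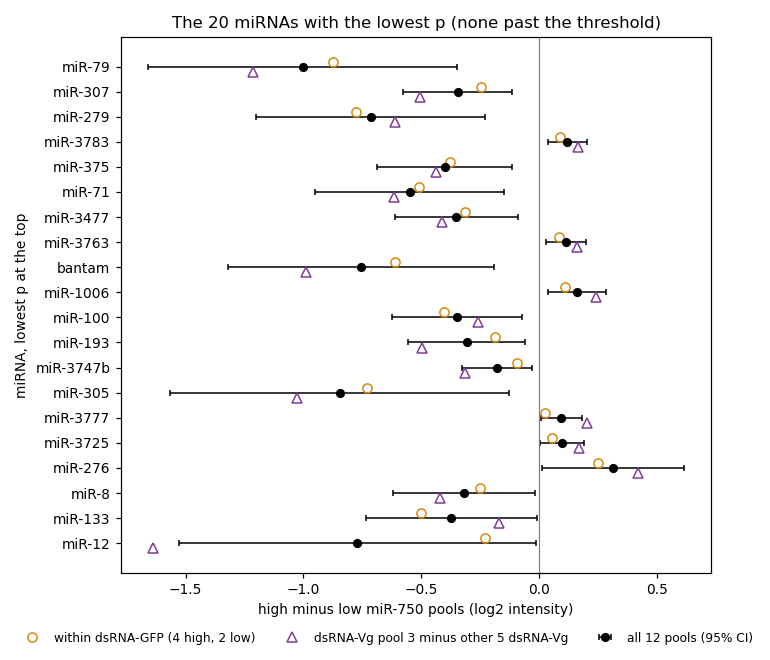
High minus low differences (log2 intensity) of the 20 miRNAs with the lowest p, with 95% confidence intervals for the fit over 12 pools (black), the difference within dsRNA-GFP (orange circles, 4 high and 2 low pools) and dsRNA-Vg pool 3 minus the other 5 dsRNA-Vg pools (purple triangles). None passes the adjusted threshold, and all 20 keep one sign in the 3 estimates.

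Gut markers were examined beyond miR-1175. miR-281 read 7.30, 8.16, 8.62 and 8.06 log2 in the 4 high dsRNA-GFP pools (1, 2, 3 and 5) and 7.54 in pool 3 of dsRNA-Vg, against 7.25 to 7.73 with a median of 7.45 in the low pools. 3 of 5 high pools lay above every low pool, and the difference was 0.36 log2 (SE 0.22, 95% interval -0.13 to 0.84, adjusted p = 0.488 in limma). miR-281 thus did not separate the classes as miR-1175 did, and the interval does not show that it was alike in both. Of the 4 miRNAs listed for midgut and gut (miR-281, miR-275, miR-8 and miR-7), 0 passed, 1 was above 0 and 3 below, with a median of -0.07 beside 0.02 over all tested (0.01 beside 0.11 in the deposited values). Their summed deposited level, most of it miR-8, was 35244 to 45314 in the high pools and 39853 to 46623 in the low pools.

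Markers of the other tissues of a carcass gave 0 adjusted calls in every list. Both muscle markers had negative values, miR-1 at -0.39 (SE 0.37) and miR-133 at -0.37 (SE 0.16), and their summed deposited level was 1618 to 4111 in the high pools and 1835 to 5224 in the low pools. The 7 nerve markers had a median of 0.01, with summed levels of 3744 to 6596 in high and 4371 to 5639 in low pools. The 4 tested epithelial and sensory markers had a median of 0.00, with summed levels of 4078 to 6517 in high and 3679 to 4807 in low pools. Within that list miR-184 read 11.98, 11.27, 11.67 and 12.15 log2 in the 4 high dsRNA-GFP pools (1, 2, 3 and 5) and 11.97 in pool 3 of dsRNA-Vg, against 11.07 to 11.64 with a median of 11.44 in the low pools, a difference of 0.38 (SE 0.18, adjusted p = 0.361). 4 of 5 high pools lay above every low pool, again without dsRNA-GFP pool 2, a layout shown by 12 of 166 miRNAs (7.23%). The 1 tested ovary marker, miR-989, differed by 0.04. The 4 fat body markers, of which miR-8 and miR-277 were bright in both classes and miR-14 was dim, had a median of -0.18 in normalized values and 0.13 in deposited values, and summed levels of 40322 to 51900 in high and 42079 to 52112 in low pools, with miR-277, a regulator of branched-chain amino acid use in Drosophila, at 0.36 (SE 0.21) and miR-278, of insulin sensitivity, at -0.46 (SE 0.32). The part of any tissue in the miRNA differences was not tested.

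Lists on function and genome clusters likewise gave 0 adjusted calls. Of 7 miRNAs listed for fat storage and insulin signalling, 2 were above and 5 below 0, with a median of -0.12. Of 5 tested for vitellogenesis and reproduction in mosquitoes, 2 were above and 3 below 0 (median -0.07). All 4 tested members of the miR-279 seed family were below 0 (median -0.29), from miR-279 at -0.71 through miR-279c at -0.38 (SE 0.18) and miR-996 at -0.20 to miR-279b at 0.00. Shared signal between these reporters by cross-hybridization was not tested. The ageing cluster (miR-34, miR-277 and miR-317) had a median of 0.03. The let-7 complex had a median of -0.27, with let-7 at -0.27, miR-100 at -0.35 and miR-125 at 0.02.

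Of the remaining lists, the miR-71 cluster had a median of -0.07 over 4 miRNAs, the miR-12 cluster -0.35 over 3, the miR-9 cluster -0.13 over 4, the miR-92 seed family 0.00 over 2 tested (0.12 in the deposited values), and growth and cell survival (bantam and miR-11, at -0.76 and 0.24) -0.26.

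Neighbours in the genome did not all move alike. miR-305 at -0.85 lies beside miR-275 at -0.07 (SE 0.14). miR-79 at -1.004 lies beside miR-306 at -0.09 and miR-9b at 0.05, both dim. miR-12 at -0.77 lies with miR-3477 at -0.35 and miR-283 at 0.08. No difference between neighbours was tested.

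Within the dsRNA-GFP pools alone, 4 high against 2 low, 0 of 166 passed (0%) and 3 had an unadjusted p under 0.05 (1.81%), miR-375, miR-71 and miR-100, all lower. The 5 largest of the 12-pool comparison had there -0.87 for miR-79, -0.78 for miR-279, -0.73 for miR-305, -0.61 for bantam and -0.23 for miR-12. In dsRNA-Vg the high class was 1 pool, so there is no test, and its values minus the mean of the 5 low dsRNA-Vg pools were -1.21, -0.61, -1.03, -0.99 and -1.64 for the same miRNAs in that order. Both sets of differences share no pool. Across the 166 miRNAs they correlated with Pearson's r = 0.63 and Spearman's rho = 0.48, and with 0.60 and 0.61 over the 34 detected on all arrays, a description across miRNAs that are not independent and that share array brightness and the control reporter signal.

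**Figure D5:**
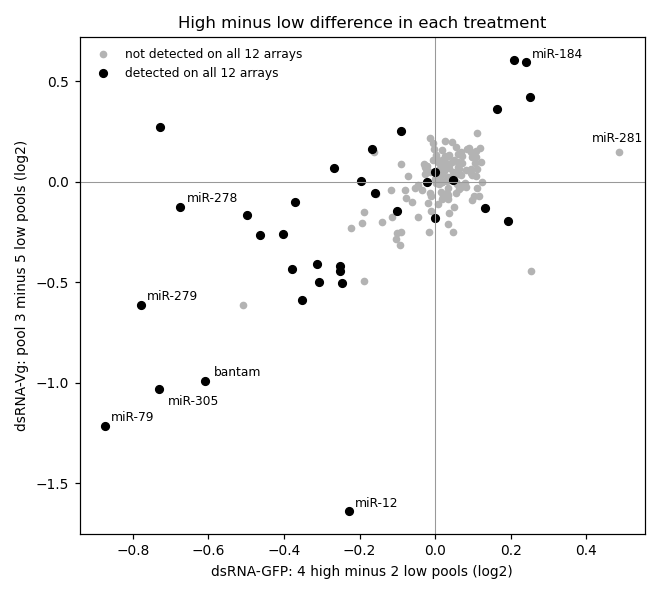
High minus low difference (log2) of each of 166 miRNAs within dsRNA-GFP (x axis, 4 high minus 2 low pools) against dsRNA-Vg pool 3 minus the other 5 dsRNA-Vg pools (y axis), black for the 34 miRNAs detected on all 12 arrays. miR-79, miR-305, bantam and miR-279 lie below 0 on both axes, and miR-12 at -0.23 and -1.64 lies off the rest.

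dsRNA-GFP pool 2 had a high miR-750 value, of 2000, and a miR-1175 value of 902. It still resembled the low pools in miR-79, miR-279, miR-305, bantam, miR-184, Ctr06-3P and Ctr10-3P. It lay with high pools in miR-133 (7.94 log2, low pools from 8.65), miR-3718a (7.39, from 7.44) and miR-3732 (7.02, from 7.03). In miR-281 it read 8.16, with low pools up to 7.73. Median correlations with high and low arrays were 0.9735 and 0.9825 for dsRNA-GFP pool 2, and 0.9695 and 0.9825 for dsRNA-Vg pool 3. They were 0.9811 and 0.9829 for dsRNA-GFP pool 5, while dsRNA-GFP pools 1 and 3 correlated better with high arrays. Each pool was left out in turn, and dsRNA-GFP pool 2 was singled out after the values were seen. Leaving that pool out gave 6 of 166 miRNAs past an adjusted p of 0.05 (3.61%), 1 higher (0.602%) and 5 lower (3.01%), with 41 at an unadjusted p under 0.05 (24.7%), 22 higher (13.3%) and 19 lower (11.4%). Lower in the high pools were miR-305 (-1.09, SE 0.17, adjusted p = 0.0072), bantam (-0.94, SE 0.15), miR-79 (-1.20, SE 0.20), miR-279 (-0.86, SE 0.15) and miR-307 (-0.40, SE 0.09), and miR-1006 was higher (0.20, SE 0.04). The spread of miR-307 is in part set by the fixed ranks of quantile normalization, as given above. 16 miRNAs then had classes that did not overlap, 12 higher (7.23%) and 4 lower (2.41%). Of the 12 higher, all but miR-184 were dim probes, detected on 2 to 7 of 12 arrays. Their differences ran from 0.07 (miR-3744) to 0.20 (miR-1006). dsRNA-GFP pool 2 was the one pool of 12 whose omission gave any call, so the 6 calls are no independent support. With dsRNA-Vg pool 3 left out as well, 0 passed. No high dsRNA-Vg pool then remained, so the class difference came from dsRNA-GFP pools alone.

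Control reporters were added to the fit as covariates after the values were seen, and since they were picked for differing between the classes, class and covariate overlap in these fits. Without dsRNA-GFP pool 2, 0 of 166 passed with PUC2PM-20B, with Ctr06-3P or with Ctr10-3P in the fit, and 6, 9 and 8 had an unadjusted p under 0.05. miR-305 was then -0.80 (SE 0.28), -0.72 (SE 0.32) and -0.64 (SE 0.37), and miR-279 was -1.04 (SE 0.27), -1.15 (SE 0.29) and -0.77 (SE 0.37), with those 3 covariates in that order. miR-79 was -0.66, -0.36 and -0.62 and bantam -0.62, -0.43 and -0.71. Over all 12 pools 0 passed with any of the 3, and 0, 5 and 4 had an unadjusted p under 0.05; miR-305 was -0.17, 0.04 and 0.07 and miR-79 -0.21, -0.06 and -0.20. Without normalization between arrays, bantam (-1.47, SE 0.37), miR-12 (-1.43), miR-307 (-1.16), miR-279 (-1.11) and miR-305 (-1.15) were lower in the high pools over all 12 pools at adjusted p of 0.0167 to 0.0429, where the median of all miRNAs was 0.21 log2, and with the PUC2PM-20B covariate there were 0. The part of array signal in these differences was not tested beyond these covariates.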

How the data were processed

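Small RNA from 12 pools was hybridised to 1-colour Cy3 arrays by a service provider, per the labels. The deposited scanner files give a median intensity for each of 3968 spots, with no local background, per the file headers: 168 bee miRNA probes in 18 spots each, 628 empty spots and 316 other controls. The authors' deposited table holds 1 linear intensity per miRNA and pool, as whole numbers from 4 to 44058. The sources used here do not give how these were corrected, normalized or centred.

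Scanner intensities were corrected with normexp (offset 50, all spots), log2 transformed, quantile normalized over miRNA spots, and averaged per probe (limma 3.58.1, R 4.3.3). The offset shrinks differences of dim probes. Class (high, low) and treatment were fitted with lmFit and eBayes over 166 probes, all but miR-750 and miR-1175, with no filter on dim probes, Benjamini-Hochberg adjustment and a threshold of 0.05. Array measures were tested by exact permutation. The fit was tested on simulated data. The number of arrays limits the precision.

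The classes, lists and named miRNAs were chosen with earlier results of these data known. Named were the 20 lowest p, the 5 brightest probes, and examples from the 17 lists, and genes named beyond these were chosen after their values were seen. Of 168 probes, 147 had a RefSeq gene of the same name, and no coordinates are given. Pool numbers were not treated as pairs in the main fit. Correlations of deviations from the treatment means between same-numbered pools were -0.25, 0.30, 0.41, 0.43, 0.05 and 0.11 for pools 1 to 6. No test was made of them, so they do not settle whether the numbers pair the pools. The alternatives changed background correction, normalization, filter, source of values, covariates and pools. Of those for the count over all pools, 27 were added after seeing the data: they combine leaving out dsRNA-GFP pool 2 with other settings, or add a control reporter as covariate.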

Additional observations from a re-analysis of the deposited data

Results flagged for a closer look

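The 5 control reporters that differed between the classes lie outside the miRNA measurement. In the high pools, against the low pools, PUC2PM-20B was -1.29 log2, a3-PUC2PM-20B -1.11, a2-PUC2PM-20B -1.08, Ctr06-3P -1.54 and Ctr10-3P -1.56, each with an adjusted p of 0.0366 in limma over 55 reporters. The part of these signals in the miRNA differences was examined only by adding PUC2PM-20B, Ctr06-3P or Ctr10-3P as a covariate.

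A single pool stood far from the others of its treatment and class for 6 miRNAs, where 54 groups were looked at and chance alone flags about 1 in 20 groups, 2.7 here. In dsRNA-Vg pool 4, a low pool, miR-307 read 12.83 log2, while the other 4 low dsRNA-Vg pools read 13.24 to 13.26. In the same pool miR-12 read 10.36 against 11.30 to 11.48, miR-8 read 14.83 against 15.20 to 15.29, miR-276 read 15.22 against 14.76 to 14.85, and miR-317 read 12.96 against 13.04 to 13.05. The values of miR-8 and miR-276 are tied by the fixed top ranks of quantile normalization. miR-2 read 13.69 in dsRNA-GFP pool 1, against 13.78 in the other 3 high dsRNA-GFP pools. miR-2, miR-307 and miR-317 met such fixed values as well, and all flags but that of miR-2 come from one array. The chance rate does not hold for linked or fixed values, so the 6 cannot be set against 2.7.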

How the results depend on the processing

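The count of 0 called miRNAs held under 25 of 27 alternatives set for all 12 pools, and under all 13 run within dsRNA-GFP. It became 5 with no normalization between arrays. Leaving out 1 pool at a time gave 0 to 6, with 6 only without dsRNA-GFP pool 2. The replicate block, which puts the pool number in the fit, gave 0 calls and 8 at an unadjusted p under 0.05, against 22 without it; only 2 dsRNA-GFP pools and 1 dsRNA-Vg pool correlated best with their own number. Of 27 settings added after seeing the data, 10 gave 0 calls. With dsRNA-GFP pool 2 left out, there were 7 calls in the deposited values, 6 in those plus 50, 20 with scaling to the median, 18 with no normalization, 5 with no background correction, 1 with the replicate block, 13 without the treatment term, 0 with cyclic loess, 0 within dsRNA-GFP and 0 with PUC2PM-20B, Ctr06-3P or Ctr10-3P as covariate. Without that pool the calls were 3 higher and 17 lower with scaling to the median, 0 higher and 18 lower with no normalization, and 1 higher and 5 lower with quantiles. With a further pool left out there were 0 to 23, with 3 without dsRNA-GFP pool 4, 0 without dsRNA-Vg pool 3 and 23 without dsRNA-GFP pool 5. There were 5, 6 or 7 without any other. Without dsRNA-Vg pool 3 the class difference comes from dsRNA-GFP pools alone.

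Of 24 named miRNAs under these alternatives, 624 of 645 values kept direction and side of the threshold, 11 passed only under an alternative and 10 turned sign. miR-276 was -0.0709 with scaling to the median. miR-317 was -0.77 with no normalization, -0.98 with median scaling, -0.0520 with cyclic loess, -0.16 in the deposited values, -0.16 in those plus 50, -0.11 with the replicate block, and -0.00098 to 0.0504 with 1 pool left out. miR-281 was -0.18 with the replicate block, and miR-275 was 0.0586 with cyclic loess. Detected probes differed by 35.6 to 85.5 with 1 pool left out, with p = 0.0167 without dsRNA-GFP pool 5 (72.5) and 0.0333 without dsRNA-GFP pool 6 (85.5), by exact permutation. The empty spots differed by -0.0826 log2 within dsRNA-GFP and by -0.0926 to 0.12 with 1 pool left out. The cause of these changes was not tested. No slide or scan field stood in the files, so that block was not run.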

Other observations

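Of the 92 miRNAs numbered 3000 or above, most of them dim, 0 passed the adjusted threshold in limma, and 4 were higher and 3 lower in the high pools at an unadjusted p under 0.05, beside 7 higher (4.22%) and 15 lower (9.04%) of all 166. Of these miRNAs 65 had a difference above 0 and 27 below, beside 98 and 68 of all 166, with a median of 0.04 log2 beside 0.02 over all 166, and 4 were detected on all 12 arrays.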
